A study of Mus musculus with 8 samples.

Results

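Of the 55681 non-control probes on a mouse expression array, 16194 are named in the scanner files by a genomic interval and a strand instead of a transcript accession, and these are the noncoding RNA intervals of the array's design. The 577 of them on chromosome X were left out and none lay on chromosome Y, which left 15617 interval probes on 19 autosomes. They cover 3390 intervals, of which 1042 were probed on both strands, 1189 on the forward strand only and 1156 on the reverse strand only, and 3 carry other strand labels. Counted by strand there were 4432 interval names, with a median of 3 probes each and at most 10. The intervals had a median length of 7451 bases, with quartiles at 794 and 21810 bases. Coordinates are given in the build named in the file headers, mm9. No mm9 annotation was used here, so the intervals are named by position and strand, their nearest genes are not given, and whether each is intergenic was not tested. No probe sequence stands in the files used here, so none is printed.

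The samples were LSK cells, the lineage-negative, Sca-1-positive, c-Kit-positive marrow fraction that holds haematopoietic stem cells and early progenitors, sorted from irradiated recipient mice of the C57BL/6 background. Donor cells carried Cre-ERT with either a floxed or a wild-type Ezh2 gene, had received a retrovirus encoding RUNX1S291fs or an empty vector, and were transplanted together with CD45.1+ wild-type marrow. Each of 8 groups had 1 array. Month 4 CD45.2+ cells, pooled from 2 to 4 mice, were WT, Ezh2Δ/Δ (Ezh2 deleted), RUNX1S291fs, and RUNX1S291fs/Ezh2Δ/Δ (called double mutant here). RUNX1S291fs is a C-terminally truncated form of the transcription factor RUNX1 found in myelodysplastic syndrome (MDS), and Ezh2 encodes the H3K27 methyltransferase of Polycomb repressive complex 2. A further 2 arrays held double-mutant cells from single moribund mice, 1 with MDS and 1 with MDS that had gone on to myeloid leukaemia (MDS/ML). The last 2 held the CD45.1+ wild-type competitor cells of RUNX1S291fs and of double-mutant recipients at month 4, and are called the RUNX1S291fs-recipient and the double-recipient competitors. With 1 array a group, differences between 2 arrays have no replicate check, and only the effects fitted over all 8 arrays were tested.

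Long intergenic noncoding RNAs are transcripts without a long open reading frame that lie between protein-coding genes. Many are spliced and polyadenylated like messenger RNAs, are present at lower levels than messenger RNAs and vary more between cell types, and some act in the nucleus on chromatin or on the splicing and transcription of other genes. Some are transcribed divergently from, or overlap with, regulators of blood development, and in stem and progenitor cells their levels shift as cells commit to a lineage. A genomic interval on an array can also catch an unspliced or extended part of a neighbouring transcript.

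Levels are the log2 processed signal minus the array's own 75th percentile over all non-control probes, so 0 marks that percentile, and a probe counts as detected where the scanner software called it well above background. Among the named genes on these arrays, Kit was high throughout (4.06 to 5.11), whereas Ly6a, which encodes the Sca-1 antigen, was 0.53 on the MDS array and 1.18 on the MDS/ML array against 3.17 to 4.14 on the other 6. The mean of 10 LSK and stem cell markers was 1.00 and 1.67 on these arrays against 2.46 to 3.94 elsewhere, and that of 6 megakaryocyte markers 4.17 and 4.58 against -1.78 to 1.85. The mean of 9 B-cell markers was 3.19 on the Ezh2Δ/Δ array, 0.61 on the double-recipient competitor array and -1.76 or lower on the others. That of 8 neutrophil markers ran from -0.79 (MDS/ML) to 7.15 (double mutant), and that of 7 mast cell and basophil markers was 2.19 on RUNX1S291fs and 3.06 on the double mutant against -2.30 to 0.64 on the other 6. Ddx3y, a Y-linked gene, was detected only on the Ezh2Δ/Δ and MDS/ML arrays, and Xist on the other 6. The Ezh2 probe read 3.10 to 4.01 on all 8 arrays, and its place relative to the deleted exons was not tested. Runx1 read 3.04 to 3.55 on the arrays without RUNX1S291fs and 3.47 to 5.31 on those with it. The WT, double-mutant and MDS samples were on 1 slide, the MDS/ML sample on another and the other 4 on a slide of their own.

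Interval probes were detected less often than the other probes on every array. The share well above background was 40.6% on the WT array, 33.1% on Ezh2Δ/Δ, 30.5% on RUNX1S291fs, 35.7% on the double mutant, 42.1% on MDS, 33.9% on MDS/ML, 25.5% on the RUNX1S291fs-recipient competitors and 31.8% on the double-recipient competitors. The 39487 other probes gave 61.3%, 57.9%, 55.5%, 58.9%, 59.6%, 56.6%, 51.5% and 57.3% in the same order. The gap between both kinds of probe was thus narrowest on the MDS array, which also had the highest interval share. Many intervals gave no signal in these cells: 7826 interval probes (50.1%) were detected on 0 arrays, against 32.0% of the other probes. At the other end, 3468 interval probes (22.2%) were detected on all 8 arrays, against 48.2% of the others. By interval and strand, 3313 of 4432 had a probe detected on at least 1 array and 1882 on all 8. The RUNX1S291fs-recipient competitor array had the dimmest signal, with a 75th percentile of 186 intensity units against 278 to 474 on the others, and the number of probes called there is lowest for both kinds.

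**Figure D1:**
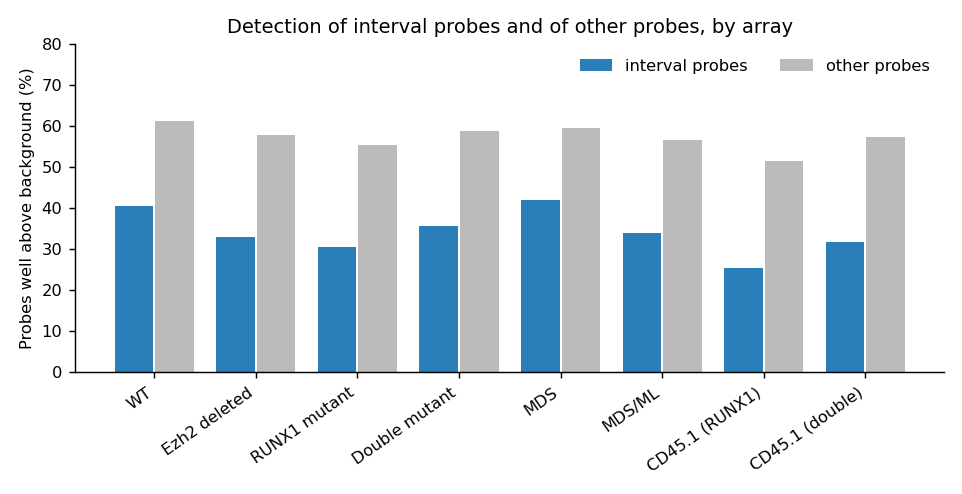
Share of probes well above background (%, y axis) on each of the 8 arrays, for the 15617 interval probes (blue) and the 39487 other probes (grey). Interval shares run from 25.5% to 42.1% and are below the others' share on every array.

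Detection was also counted by strand. Of the 1042 intervals probed on both strands, 302 had a probe detected on all 8 arrays on both strands, 453 on one strand only and 287 on neither. Reverse-strand probes were detected slightly more often than forward-strand probes on each array, for example 43.0% against 38.2% on WT and 44.7% against 39.6% on MDS. Probes of the same interval and strand tracked each other where there was something to track. Over 815 interval names with at least 2 probes detected on all 8 arrays (2401 probes), the median correlation between such probes across the 8 arrays was 0.77. In the 468 of them whose probes ranged at least 2-fold it was 0.89, and 276 of these were above 0.8. These correlations describe probes on the same arrays and carry no test.

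A few intervals were bright on every array. The single probe of chr11:22681800-22707775 (reverse) read 9.31 to 10.38 over the 8 arrays, and that of chr7:108209996-108216032 (reverse) 9.16 to 10.11. The brightest of 3 probes of chr17:17481706-17482457 (reverse) read 8.46 to 9.59. The RUNX1S291fs-recipient competitor array was the highest at all 3, and the lowest was the double-recipient competitor array at the first 2 and MDS/ML at the third. By contrast, chr17:48068261-48087905 (forward) was 8.07 to 9.36 on the month 4 arrays but 7.31 on MDS and 7.04 on MDS/ML, a fitted stage change of -1.13 that did not pass the test described next (adjusted p = 0.459).

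Effects over all 8 arrays were fitted with limma as the sum of a term for Ezh2 deletion, a term for RUNX1S291fs and a term for the moribund stage, on the 29854 probes detected on at least 3 arrays, with Benjamini-Hochberg adjustment over all of them. Of these, 5901 were interval probes. The fit takes a level that is not well above background as measured, so a fitted change that rests on such levels has no firm size. For the moribund stage, 13 interval probes were higher and 31 lower at an adjusted p under 0.05. Over all probes the shares were 0.191% higher and 0.881% lower. For RUNX1S291fs, 0 interval probes were higher (76 at an unadjusted p under 0.05) and 1 was lower (156 at an unadjusted p), where all probes gave 0% and 0.0134%. For Ezh2 deletion 0 interval probes passed in either direction, and 77 were higher and 37 lower at an unadjusted p under 0.05, where all probes again gave 0%. The stage calls were the largest set, and they also depended on single arrays. They came to 0 with the slide as a block, 0 without the double-mutant array, 0 without the double-recipient competitors, 14 without WT and 7 without MDS. The smallest adjusted p among interval probes in these fits was 0.053 for the block and 0.0853 and 0.0503 for the arrays whose removal gave 0.

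The 44 stage-called probes fell into 14 loci when intervals on the same strand within 50 kb were joined (2717 loci in all). Their members lay next to or on top of each other, so probes of a locus are not independent. The locus with most called probes that rose spanned chr1:139713316-139913366 on the forward strand, with 6 interval names and 22 probes. All 18 tested probes had a fitted stage change above 0 and 8 were called, with fitted changes of 0.82 to 4.32 (median 3.48, log2). At chr1:139847592-139848243 the level was -1.07 on WT, -2.06 on Ezh2Δ/Δ, -2.48 on RUNX1S291fs, -1.88 on the double mutant, 1.81 on MDS, 1.36 on MDS/ML, -1.11 on the RUNX1S291fs-recipient competitors and -1.75 on the double-recipient competitors. Both moribund arrays stood above all 6 month 4 arrays, with a fitted stage change of 3.87 ± 0.51 (SE, log2; limma adjusted p = 0.0233). The neighbouring chr1:139856545-139857204 behaved alike, at 2.11 and 1.66 on the moribund arrays and -2.01 to -0.69 elsewhere. At chr1:139822286-139822985 the moribund levels were 3.63 and 3.97, but WT already read 2.30, and none of its 3 probes was called (adjusted p = 0.13 for the brightest).

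The reverse strand of the same stretch was weaker. Of its 6 tested probes, 4 were higher and 2 lower on the moribund arrays, and 2 were called higher. One of these, at chr1:139814266-139817889, was -2.31 on MDS, -1.43 on MDS/ML and -3.39 on WT and was not well above background on the other 5 arrays, with a fitted change of 3.77 ± 0.63 (SE; limma adjusted p = 0.045). The long forward-strand interval that encloses the others, chr1:139713316-139913366, changed little at its brightest probe, from -1.81 to -1.08 at month 4 to -0.65 on MDS and -0.99 on MDS/ML.

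The locus with most called probes that fell lay at chr3:30032959-30133959 on the reverse strand, with 8 interval names and 26 probes. All 25 tested probes had a fitted stage change below 0 and 9 were called, with fitted changes of -5.58 to -0.32 (median -2.62). The brightest probe of chr3:30077338-30080281 read 1.61 on WT, -0.08 on Ezh2Δ/Δ, -1.63 on RUNX1S291fs, -0.47 on the double mutant, 0.20 on the RUNX1S291fs-recipient competitors and 0.46 on the double-recipient competitors, and was not well above background on either moribund array (-6.67 and -6.28). The mean of the 6 month 4 arrays was at least 26.3-fold above the moribund arrays, with the detection floor of each array in place of the dim values (fitted change -5.41 ± 0.71, SE; limma adjusted p = 0.0225). Among the month 4 arrays WT was the highest and RUNX1S291fs the lowest. Not every probe went to the floor. The brightest probe of chr3:30099759-30133959 stayed between -0.65 and 0.19 on all 8 arrays, and that of chr3:30032959-30079659 was -1.32 on MDS and -2.60 on MDS/ML against -1.55 to 0.90 at month 4. On the forward strand of both of these intervals no probe was detected on more than 4 arrays. Mecom, the stem cell regulator among the LSK markers, read -3.78 to -1.44 at month 4, where it was well above background on 5 of 6 arrays, and was not well above background on the moribund arrays (-6.78 and -6.27); its part in the fall at this locus was not tested.

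At chr9:31834945-32015745, forward strand, all 6 tested probes were lower on the moribund arrays and 5 were called. The brightest, within chr9:31873801-31874407, read 0.37 on WT, 0.04 on Ezh2Δ/Δ, -0.28 on RUNX1S291fs, -0.60 on the double mutant, -0.70 on the RUNX1S291fs-recipient competitors and -0.54 on the double-recipient competitors. It was not well above background on MDS (-6.25) or MDS/ML (-6.42). The 6 month 4 arrays thus lay between -0.70 and 0.37, and were at least 21.3-fold above the moribund arrays on average (fitted change -5.93 ± 0.49, SE; limma adjusted p = 0.0121). Neither genotype term passed here, with fitted changes of -0.25 ± 0.40 for RUNX1S291fs and 0.07 ± 0.40 for Ezh2 deletion.

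A locus at chr8:82836971-82919089, reverse strand, also lost signal at all 6 tested probes, 5 of them called, with fitted changes of -3.16 to -1.89. The brightest probe of chr8:82836971-82849309 stayed measurable on every array. It read 1.09 on WT, 1.47 on Ezh2Δ/Δ, -0.51 on RUNX1S291fs, 0.61 on the double mutant, -2.23 on MDS, -2.49 on MDS/ML, 1.14 on the RUNX1S291fs-recipient competitors and 1.18 on the double-recipient competitors. The moribund arrays were the lowest, and RUNX1S291fs and the double mutant the next lowest. The stage change was -2.73 ± 0.38 (SE; limma adjusted p = 0.0277), and the RUNX1S291fs change of -1.33 ± 0.31 did not pass (adjusted p = 0.352).

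On chromosome 18 the intervals chr18:75513062-75523889 and chr18:75518299-75524782 (reverse) shared a profile with a peak in the double mutant. The tested probe of the second read 0.25 on WT, 0.90 on Ezh2Δ/Δ, 0.05 on RUNX1S291fs, 2.59 on the double mutant, 0.83 and 0.88 on the competitors, -2.76 on MDS and -4.90 on MDS/ML, where it was not well above background. From the double mutant to MDS it was 40.8-fold lower, and to MDS/ML at least 118-fold (fitted change -5.73 ± 0.88, SE; limma adjusted p = 0.0367). Of the locus's 5 tested probes 2 were called, and 2 dimmer probes did not follow, with fitted changes of -0.05 and 0.30.

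Of the remaining loci that fell, chr11:96175764-96176029 (forward) was lower at all 3 of its probes. Its called probe was -1.02 on WT, -2.36 to -1.74 on the other month 4 arrays, and not well above background on the moribund arrays. These were at least 6.53-fold lower on average (fitted change -4.04 ± 0.54, SE, limma adjusted p = 0.0238). The locus holds 4 names and 7 tested probes, and its median fitted change was only -0.42. On the reverse strand of a nearby interval, chr11:96111499-96126224, the level went the other way, from -1.32 to 0.10 on 5 month 4 arrays to 2.41 on the double mutant, 3.20 on MDS and 1.28 on MDS/ML, with no term passing the test. Another probe of that interval stayed between -1.46 and -0.68 on all 8 arrays. All 3 probes of chr3:30754871-30776438 (forward) were lower (fitted changes -4.04 to -3.25, 1 called), as were both tested probes of chr11:76400207-76434732 (reverse; 1 called, -3.00 ± 0.50). At chr8:26343277-26352902 (reverse) 1 probe was called (-3.58 ± 0.43), while the brightest probe of the same interval read -1.29 to -0.41 on all 8 arrays with no order by stage. The 15 tested probes on chr17:3198868-3394643 (forward) had a median fitted change of 0.33, with 1 called higher and 2 lower, so the stretch had no common direction.

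Higher on the moribund arrays were also chr8:129336539-129400338 (reverse; fitted changes of all 3 probes above 0, 1 called) and chr6:47595238-47601893 (forward; all 3 probes, 0.07 to 2.47, 1 called). At the first, the called probe was well above background on WT (-4.72), MDS (-2.50) and MDS/ML (-2.98) and on no other array, and another probe, measured on all 8, read -0.78 on MDS and -1.40 on MDS/ML against -3.32 to -2.14 at month 4. For the second, the called probe read -0.53 on MDS and -1.15 on MDS/ML against -3.47 to -2.38 at month 4. The size of most of these changes depended on the background correction. The probe with the smallest p was checked in each called stage locus and in the RUNX1S291fs locus described next. With normexp, 13 of these 15 fitted changes were smaller by over 1.5 times on the log2 scale, and 11 lost their call. The stage change became -2.30 at chr9:31873801-31874407 and -1.71 at chr10:83181374-83249774 with the call kept, and -1.57 at chr3:30077338-30080281, -0.88 at chr11:96175764-96176029 and 0.71 at chr8:129336539-129400338 with the call lost. At chr1:139847592-139848243 it was 3.06 and at chr18:75518299-75524782 -3.85, both still called. The LSK and megakaryocyte marker means given above move with every stage comparison, and their part in the stage calls was not tested. In these bulk samples fewer cells of a type and less RNA per cell cannot be told apart.

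**Figure D2:**
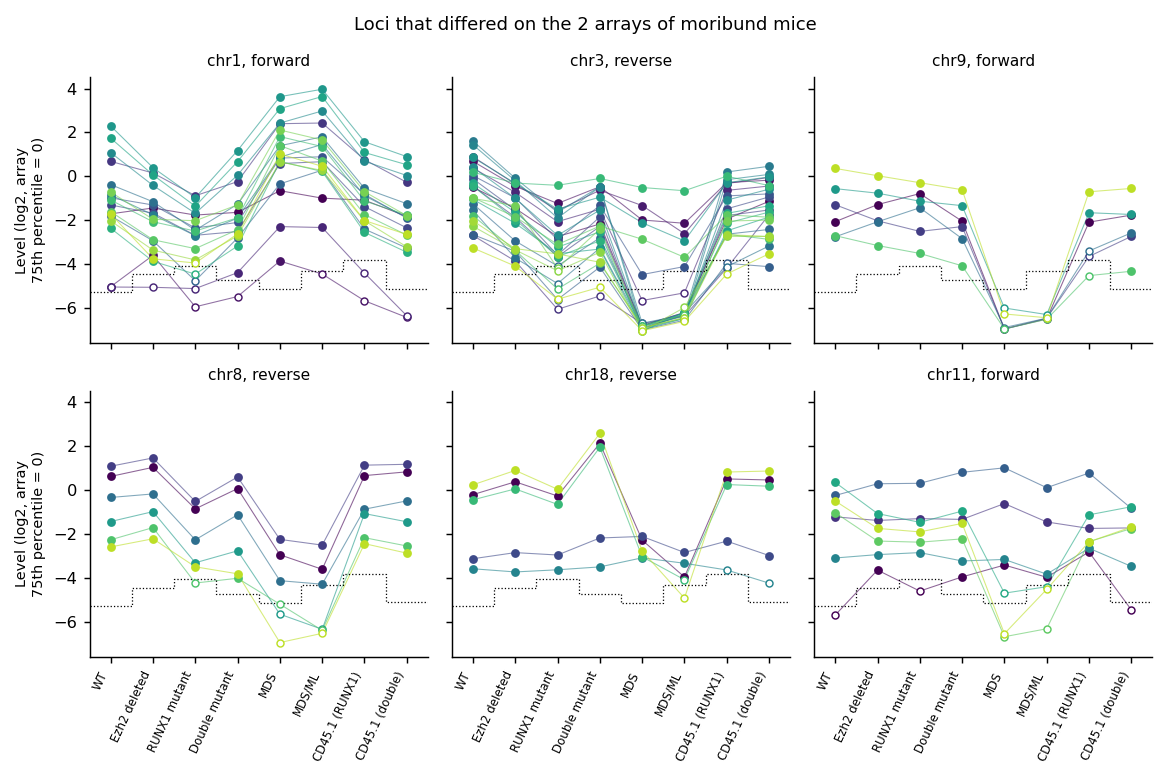
Level (log2, y axis) of each probe detected on at least 3 arrays, by array (x axis), at 6 loci named by chromosome and strand; filled points are well above background, open points are not, and the dotted line is each array's lowest detected level. All 18 probes of the chr1 locus have fitted stage changes above 0, and the 25 of chr3, 6 of chr9 and 6 of chr8 have changes below 0.

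Under RUNX1S291fs, the 1 interval probe called lower lay in chr9:121846340-121848578 on the forward strand. Its level was -2.21 on WT, 0.14 on Ezh2Δ/Δ, -1.69 and -2.04 on the competitors, -2.13 on MDS and -1.58 on MDS/ML, and it was not well above background on RUNX1S291fs (-5.83) or the double mutant (-4.69). On average, the month 4 arrays without RUNX1S291fs were at least 7.56-fold above the month 4 arrays with it (fitted change -4.24 ± 0.37, SE, limma adjusted p = 0.0404). The moribund arrays, which carry the same mutant, lay among the arrays without it, with a fitted stage change of 2.54 ± 0.45 (adjusted p = 0.0542). The locus is the stretch chr9:121845920-121858120, and 7 of its 8 tested probes were lower under RUNX1S291fs. The remaining one, the brightest, stayed between 0.29 and 1.22 on all 8 arrays. The clearest of the others read 0.93 on WT, 2.44 on Ezh2Δ/Δ, 2.32 and 0.47 on the competitors, 0.78 and 1.21 on the moribund arrays, but -3.34 on RUNX1S291fs and -3.47 on the double mutant, 30.7-fold lower on average than the 4 other month 4 arrays (adjusted p = 0.0794). The call was lost when any of the 8 arrays was left out, with the slide as a block and with normexp, where the change was -1.62 (adjusted p = 0.27). The mean of the mast cell and basophil markers was highest on the same 2 arrays, at 2.19 and 3.06 against -2.30 to 0.64 elsewhere. All 7 were well above background on both. Cma1, Mcpt4, Hdc and Ms4a2 were each highest on these 2 arrays. By contrast, Cpa3 and Fcer1a were highest on MDS (8.47 and 4.50), and Gata1 read 2.93 on WT against 2.50 and 3.01 on these arrays. The part of these markers in the result was not tested.

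A second locus was low on all 4 arrays of RUNX1S291fs cells and lower again on the moribund ones. At chr10:83181374-83249774, forward strand, the brightest probe read 2.35 on WT, 3.02 on Ezh2Δ/Δ, 2.76 and 2.69 on the competitors, -0.63 on RUNX1S291fs and -1.22 on the double mutant, and was not well above background on MDS (-5.61) or MDS/ML (-4.38). The 4 arrays without RUNX1S291fs stood together, and the month 4 arrays with it were 12.4-fold lower on average. The fitted RUNX1S291fs change of -3.63 ± 0.45 (SE) did not pass (limma adjusted p = 0.0794), whereas the stage change of -4.07 ± 0.55 did (adjusted p = 0.0242). Of the 9 tested probes 8 were lower on the moribund arrays and 4 of these were called. All 3 tested probes of the enclosed chr10:83185606-83225506 went the same way, from 0.48 to 1.00 at the brightest one on the 4 arrays without RUNX1S291fs to -2.34 on RUNX1S291fs and -3.11 on the double mutant. The reverse strand did not share the profile: the brightest reverse-strand probe of chr10:83181374-83249774 was -0.28 to 1.47 on all 8 arrays, with a fitted RUNX1S291fs change of -0.62. The 5 tested forward-strand probes of that interval had RUNX1S291fs changes of -4.08 to -3.53, and Ezh2 deletion changes no larger than 0.14 in size.

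**Figure D3:**
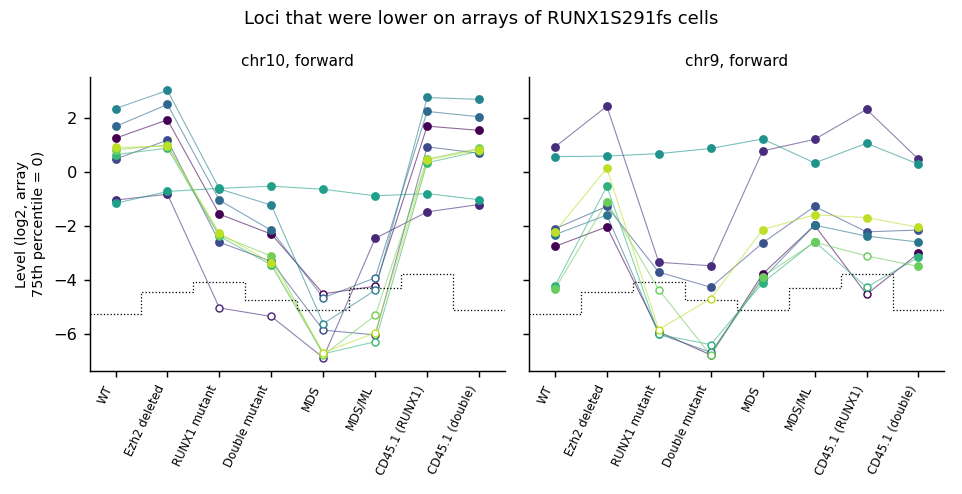
Level (log2, y axis) of each probe detected on at least 3 arrays at the chr10 and chr9 loci, by array (x axis); filled points are well above background, open points are not, and the dotted line is each array's lowest detected level. At chr10 the 4 arrays of RUNX1S291fs cells are below the 4 others for 8 of 9 probes, and at chr9 the month 4 arrays with RUNX1S291fs are the lowest for 7 of 8.

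Counting interval probes whose 4 RUNX1S291fs arrays did not overlap with the 4 others gave 182 higher of 5901 (3.08%) and 132 lower (2.24%). Over all 29854 probes the shares were 3.32% and 4.03%, so the share higher was near the array as a whole and the share lower was below it. Beside the chr10 locus, such separation was found at chr2:143988645-143993945 (reverse; RUNX1S291fs change -1.76 ± 0.31, adjusted p = 0.181), at chr5:77084398-77086144 (reverse; both probes, -2.04 ± 0.50 for the brighter, adjusted p = 0.388) and at chr19:53535104-53536627 (forward; -1.88 ± 0.48, adjusted p = 0.447). For the first, the arrays without RUNX1S291fs read -2.28 to -1.26 and those with it -4.25 to -3.41.

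For Ezh2 deletion, the 4 arrays of deleted cells did not overlap with the 4 others at 111 interval probes that were higher (1.88%) and 16 that were lower (0.271%), against 1.28% and 1.25% of all probes. The interval probes thus split 111 to 16, where the array as a whole split almost evenly, 381 to 373. Most gaps were small: 1 of the 111 and 1 of the 16 were separated by at least 2-fold. Interval probes as a whole also differed from WT by a median of 0.60 on MDS (others 0.03) and -0.27 on the double-recipient competitors (others 0.01). The part of such array-wide shifts in the split was not tested. No p was computed for this count, and no single probe passed the fitted test. The interval chr4:21683562-21694350 (reverse) read 0.04 on Ezh2Δ/Δ, 1.31 on the double mutant, 1.56 on MDS and 1.08 on MDS/ML, against -1.95 on WT, -0.78 on RUNX1S291fs, -0.45 on the RUNX1S291fs-recipient competitors and -1.39 on the double-recipient competitors. Both of its probes followed this order, with a change of 1.62 ± 0.48 (SE) and an adjusted p of 1. At chr8:91571643-91576878 (reverse), the arrays of deleted cells read -1.76 to 0.15 and the others -4.69 to -2.90, 2 of them not well above background (change 2.60 ± 0.55, adjusted p of 1). With 1 probe kept per interval and strand, the next smallest p for this term were also at higher probes, and none passed. These were chr9:121846340-121848578 (forward, 1.73 ± 0.37), chr6:53808521-53817132 (forward, 2.01 ± 0.45), chr3:40966969-40976585 (reverse, 1.37 ± 0.33) and chr9:4260788-4261404 (forward, 2.07 ± 0.50). The last 3 were each well above background on only 3 arrays. The remaining intervals of this comparison were named after their values were seen, because every tested probe of each separated both kinds of array. At chr6:54591416-54597566 (forward) all 5 probes were higher by 1.00 to 1.18, and the 2 probes of the enclosed chr6:54595084-54595833 by 1.02 and 1.05. The brightest of the 5 read 1.46 to 1.68 on the 4 arrays of deleted cells and 0.21 to 0.94 on the 4 others.

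The lower direction had 1 large case. The dimmer of both probes of chr6:35201798-35217831 (forward) read -0.64 on WT, -0.17 on RUNX1S291fs, -0.33 and -0.26 on the competitors, but -4.18 on Ezh2Δ/Δ, -4.17 on the double mutant, -3.49 on MDS and -4.88 on MDS/ML, and was not well above background on Ezh2Δ/Δ and MDS/ML. Its change of -3.86 ± 0.44 (SE) gave a limma adjusted p of 0.486. The other probe of that interval moved the same way by a smaller amount, -1.04 ± 0.29, from 0.30 to 0.72 without the deletion to -0.64 to 0.12 with it. At chr4:116791819-116798263 (reverse) both tested probes were also lower on every array of deleted cells, with changes of -0.52 and -0.53, from 1.93 to 2.25 down to 1.05 to 1.60 at the brighter one.

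Arrays were also set against each other in pairs, counting probes that differed at least 2-fold, with each array's lowest detected level standing in for a dim value. Such counts have no test and are read against all probes of the same pair. The Ezh2Δ/Δ array against WT gave 680 of 5892 interval probes higher (11.5%) and 363 lower (6.16%), where all probes gave 8.9% and 4.54%. RUNX1S291fs against WT gave 726 of 5444 higher (13.3%) and 476 lower (8.74%), where all probes gave 10.2% and 6.71%. The double mutant against WT, on the same slide, gave 462 of 6365 higher (7.26%) and 499 lower (7.84%), where all probes gave 9.37% and 8%. The interval shares were above those of the whole array in both directions in the first 2 pairs and below in both in the third. At like brightness (mean level, probes detected on both arrays), the share higher in the first 2 pairs was below the others' in each class under 2. Below -2, 11.9% of interval probes and 13.1% of others were higher on Ezh2Δ/Δ, and 15.5% and 16.2% on RUNX1S291fs. Above 2 the shares were 2.86% and 2.13%, and 6.30% and 4.03%. The share lower was below the others' under -2 and above it in the brighter classes. The balance of higher and lower depended on the processing. With quantile normalization the Ezh2Δ/Δ split became 525 to 496, and with measured values in place of the floor 681 to 692. For RUNX1S291fs the split was 311 to 114 with normexp background correction and 731 to 1036 with measured values. For the double mutant it was 285 to 802 when the percentile was taken over probes detected on all arrays, and 360 to 634 when the median difference was set to 0.

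The MDS array had the largest share of higher interval probes among the pairs counted. Against the double mutant, on the same slide, 1720 of 6933 interval probes were at least 2-fold higher (24.8%) and 378 lower (5.45%), where all probes gave 16% and 14.4%. The 1720 probes lay in 925 interval names. The other probes ran the opposite way, 13.5% higher and 16.9% lower. Interval probes differed by a median of 0.45 (log2) and the other probes by -0.06. Interval probes are dimmer than the rest, so both kinds were also set side by side at like brightness, over probes detected on both arrays and by the mean level of both. Below -2, the medians were 0.41 for 2698 interval probes and 0.25 for 4449 others. From -2 to 0 they were 0.50 and 0.08, from 0 to 2 they were 0.32 and -0.18, and above 2 they were 0.01 and -0.26. The interval median was thus above the others' in each of the 4 brightness classes. A gap between both kinds of probe is not particular to MDS. Between the competitor arrays, which are both wild type, the interval median was below the others' in each class (values given below). Of 607 intervals with both strands measured, 33 were at least 2-fold higher on both, 145 on one only, and 3 moved in opposite directions by 2-fold or more. Whether the strands moved independently was not tested. Against WT the MDS array gave 2046 of 7140 higher (28.7%) and 451 lower (6.32%), where all probes gave 18.7% and 13.5%; both comparisons rest on the same MDS array.

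The MDS/ML array, on a slide of its own, showed a weaker form: 958 of 5932 interval probes were at least 2-fold higher than in the double mutant (16.1%) and 473 lower (7.97%), where all probes gave 13.1% and 12.3%. Here the split by brightness did not separate the kinds of probe. The medians were 0.20 and 0.19 below -2, 0.11 and 0.09 from -2 to 0, -0.12 and -0.01 from 0 to 2, and -0.36 and -0.26 above 2, interval probes first. With normexp background correction the split was 229 to 226, and with the percentile over probes detected on all arrays 1373 to 325.

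**Figure D4:**
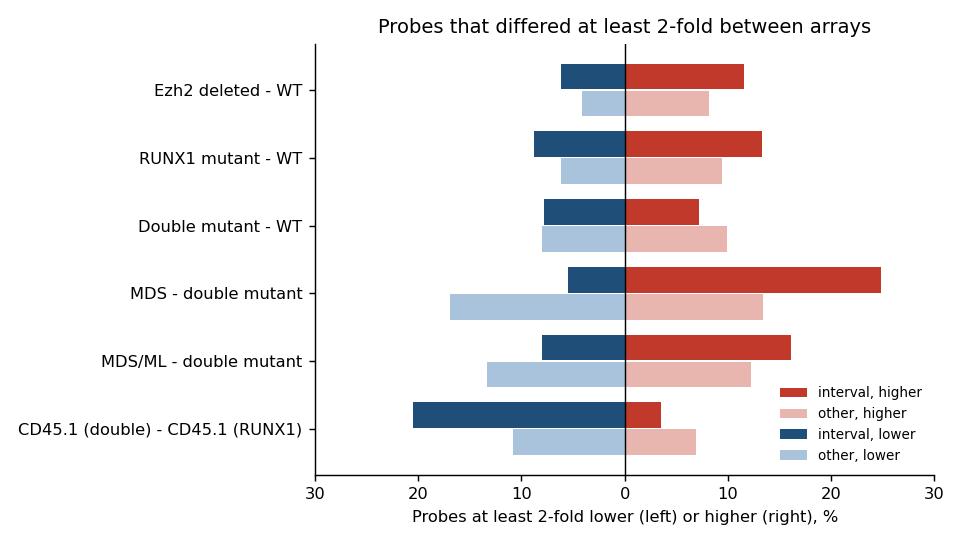
Share of probes at least 2-fold lower (left) or higher (right) in 6 pairs of arrays (%, x axis), for interval probes (dark) and other probes (pale). In MDS against the double mutant, 24.8% of interval probes are higher and 5.45% lower, where the other probes give 13.5% and 16.9%.

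An interval on chromosome 19 was among the brightest and rose in MDS. The brightest of 3 probes of chr19:5801802-5802597 (reverse) read 8.37 on WT, 8.37 on Ezh2Δ/Δ, 8.85 on RUNX1S291fs, 8.31 on the double mutant, 10.40 on MDS, 9.33 on MDS/ML, 8.33 on the RUNX1S291fs-recipient competitors and 8.17 on the double-recipient competitors. The other 2 probes were also highest on MDS (9.16 and 8.39) and next on MDS/ML (7.97 and 7.16). MDS was 4.27-fold and MDS/ML 2.02-fold above the double mutant at the brightest probe, and the fitted stage changes of 1.37 to 1.66 did not pass the test (adjusted p = 0.268 for the brightest). Malat1, a nuclear-retained long noncoding RNA with a named probe on the array, read 6.81 on MDS, 5.40 on MDS/ML and 2.92 to 4.63 at month 4. Whether this probe and the chromosome 19 interval lie in the same transcript was not tested.

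Some intervals were high on the MDS array only. At chr9:96632664-96653249 (reverse) the level was 2.81 on MDS against -0.41 on WT, -0.25 on Ezh2Δ/Δ, -2.40 on RUNX1S291fs, -3.68 on the double mutant, -2.41 and -0.29 on the competitors, and it was not well above background on MDS/ML. MDS was 89.8-fold above the double mutant here. The neighbouring chr9:96664617-96683617 read 2.48 on MDS, -2.83 on MDS/ML and -2.43 to -0.20 on the rest. At chr12:88172043-88172731 (reverse) MDS read 1.98, the others -3.46 to -0.92, and the double mutant was not well above background, which puts MDS at least 103-fold above it. The interval beside it, chr12:88216447-88224965, read 0.87 on MDS and -3.70 on the double mutant. Further along this scale, chr1:36012298-36020311 (reverse) was 0.54 on MDS, -1.44 on MDS/ML and -3.45 to -2.20 at month 4. Moribund arrays also led at the brightest probe of chr5:22801058-22939737 (reverse), with 1.20 and 0.25 against -2.54 to -0.79, whereas 2 intervals inside it, chr5:22887983-22939658 and chr5:22890322-22939119, were highest on MDS (1.29 and 1.19) and lowest on WT (-2.45 and -2.48).

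The double mutant had its own outstanding interval. At chr6:40693617-40720167 (forward) the brightest probe read 4.49 on the double mutant, against -2.56 on WT, -3.44 on Ezh2Δ/Δ, -1.17 on RUNX1S291fs, -1.25 on MDS, 0.45 and -1.41 on the competitors, and was not well above background on MDS/ML (-5.64). It was 132-fold above WT, 53.6-fold above MDS and at least 441-fold above MDS/ML. Both probes of the enclosed chr6:40699474-40719122 shared this order, with 4.43 on the double mutant and 0.49 at most elsewhere for the brighter one. The neutrophil marker mean was highest on the same array (7.15) and lowest on MDS/ML (-0.79), with 5.50 on MDS, 4.99 on Ezh2Δ/Δ and 5.04 on the RUNX1S291fs-recipient competitors. The mast cell and basophil mean was also highest there (3.06), with 2.19 on RUNX1S291fs and -1.61 on MDS/ML. The part of either list in this profile was not tested. Other intervals that were highest in the double mutant were dimmer, chr1:94608820-94634671 (reverse) at -0.26 against -4.48 to -2.91 elsewhere and chr3:131128972-131163308 (reverse) at -1.08 against -6.49 to -2.43. At chr3:131153358-131154061 (forward), 1 probe was detected on the double mutant alone, at -1.63.

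A separate set rose in the double mutant and stayed up in disease. At chr15:61984389-62102500 (reverse) the brightest probe read -2.89 on WT, -3.73 on Ezh2Δ/Δ, -2.82 on RUNX1S291fs, 0.13 on the double mutant, 1.92 on MDS, 2.59 on MDS/ML, -2.61 on the RUNX1S291fs-recipient competitors and -4.13 on the double-recipient competitors. The same order of double mutant, MDS and MDS/ML was seen at chr18:69923410-69965360 (forward; 1.22, 3.14 and 3.99, against -2.35 to -1.42 elsewhere). It was seen too at chr3:58118325-58136550 (forward; 0.49, 2.33 and 3.07, against -3.07 to -1.56) and at chr9:27153416-27153677 (forward; 0.40, 2.02 and 2.92, against -2.76 to -1.54). These 4 intervals were picked, after their values were seen, from those with the widest range. They were picked for this order and for having the 3 arrays of cells with both lesions above the 5 others. Neither trait is thus a separate result. At these intervals the double mutant was 5.97-fold to 8.13-fold above WT. In each only 1 probe of the interval carried this profile: of the 10 probes of the chr15 interval 5 were tested, and 3 of those had a stage change below 0. Fitted stage changes for the 4 probes were 2.91 to 3.31, with adjusted p of 0.145 to 0.207. The other 4 probes of the chr18 interval were detected on 0 arrays. Whether the 4 probes share sequence was not tested. In the same arrays chr9:118291593-118324230 (forward) and chr3:95502970-95503399 (reverse) were also raised, the first at 2.09, 2.76 and 0.38 against -2.65 to -0.44, and the second at 0.41, 0.78 and -0.73 against -4.22 to -2.56. At chr10:84010161-84016083 (reverse) the single probe was detected on these 3 arrays and no other, at -4.26, -1.74 and -0.69.

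**Figure D5:**
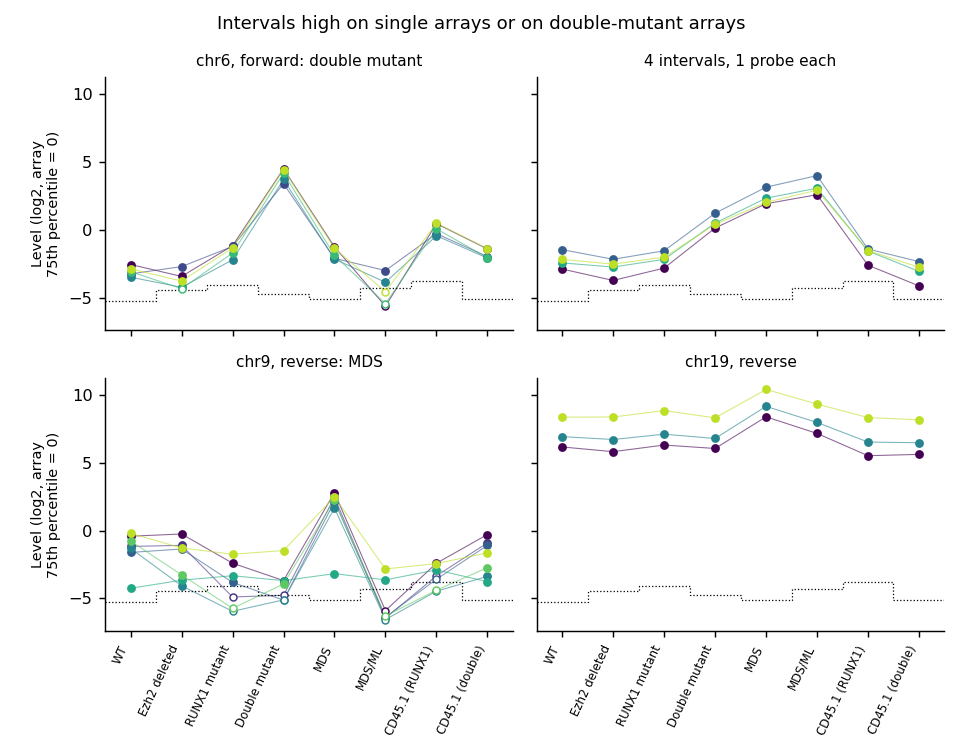
Level (log2, y axis) by array (x axis) of the probes at chr6 (5 probes), of 1 probe each of 4 intervals on chr15, chr18, chr3 and chr9, of the chr9 stretch high on MDS (7 probes) and of a chr19 interval (3 probes), all detected on at least 3 arrays; filled points are well above background, open points are not, and the dotted line is each array's lowest detected level. The chr6 probes peak on the double mutant, and the 4 intervals, picked for this order, rise from the double mutant to MDS/ML.

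Ezh2Δ/Δ cells had intervals that no other deleted array shared. At chr1:69536930-69540362 (reverse) the level was 1.22 on Ezh2Δ/Δ and not well above background on the 7 others, at least 88.3-fold above WT. At chr14:43929100-43945100 and chr3:137742666-137744470 (both forward) the Ezh2Δ/Δ array read 0.66 and 0.35, at least 60.0-fold and 48.4-fold above WT, and the only other array with signal was that of the double-recipient competitors (-3.94 and -3.50). These are also the 2 arrays with the highest B-cell marker means, 3.19 and 0.61; the part of these markers in the result was not tested. Smaller differences were seen at chr2:168804720-168854970 (forward; -0.05 on Ezh2Δ/Δ, -4.16 on WT, -4.47 to -2.38 elsewhere), chr5:53931541-53945241 (forward; 0.48 against -2.84 on WT) and chr1:59449275-59474025 (forward; -0.91 against -4.62 on WT). At chr6:120670699-120677449 (forward) Ezh2Δ/Δ read -0.91 against -4.03 on WT, and the wild-type competitors on its slide read -1.84 and -2.56. Lower than WT were chr11:19950950-19962250 (reverse, 4.68-fold), chr6:100514596-100520846 (reverse, 5.71-fold) and chr13:48620882-48643532 (forward, 4.52-fold). All were also lower on the RUNX1S291fs array, by 3.60-fold, 4.13-fold and 4.68-fold. The wild-type competitors, on the slide of these arrays, were below WT too. They read -1.20 and -1.68 against -0.15 at the chr11 interval, and -2.57 and -2.95 against -1.55 at the chr6 interval. At the chr13 interval they read 2.53 and 1.84 against 3.77. At each of these intervals every array of that slide was below every array of the WT slide, so slide and lesion cannot be told apart.

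The RUNX1S291fs array led at chr6:57583950-57624216 (reverse), detected on it alone at 0.12 and at least 41.3-fold above WT. At chr15:90074814-90087814 (reverse) it read 0.07 against -4.21 to -3.50 on the others, and at chr7:134372392-134372943 (reverse) 0.98 against -4.58 to -2.25. At chr7:6296401-6311486 (reverse) it read -0.06, and the only other array with signal was the double mutant, at -4.61. At chr6:83841733-83842297 (forward) it read 0.40, Ezh2Δ/Δ -2.04, and no other array was well above background. The double mutant, which carries the same RUNX1 mutant, was 11.9-fold lower than RUNX1S291fs at the chr15 interval and 41.2-fold lower at the first of the chr7 intervals. At chr2:128211990-128215223 (reverse) the RUNX1S291fs array was also the highest, at 2.08 against -0.64 on WT, and the moribund arrays the lowest, at -1.45 and -2.56. At chr9:65368908-65377592 (reverse) it read -0.79 against -4.01 on WT and -4.33 on the double mutant.

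The WT array was the highest at chr3:146515333-146557069 (forward), 0.00 against -3.31 and lower elsewhere, and at chr4:146890596-146891297 (forward), 0.74 against -5.34 to -1.82. The MDS/ML array was the highest at chr12:112220578-112220962 (forward; 0.51, at least 32.6-fold above the double mutant) and at chr17:29378878-29379589 (forward; 0.27, 11.5-fold above it). With 1 array a group such differences cannot be told apart from differences between the mice sampled.

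The competitor cells are wild type in both recipients, so the groups differ in the recipients' mutant cells and not in a lesion of their own. The double-recipient competitors had 159 of 4533 interval probes at least 2-fold above the RUNX1S291fs-recipient competitors (3.51%) and 931 below (20.5%), where all probes gave 6.36% and 12.5%. Over all probes detected on both arrays the difference was not centred on 0, and with that median set to 0 the counts were 293 and 609. They were 276 and 639 with the percentile over probes detected on all arrays, and 428 and 931 with measured values in place of the floor. At like brightness the interval median was below the others' in each class. The medians were -0.57 and -0.32 below -2, and -0.40 and -0.01 from -2 to 0, interval probes first. From 0 to 2 they were -0.34 and -0.01, and above 2 they were -0.57 and -0.32. The RUNX1S291fs-recipient competitor array is the dimmest of the 8, and the part of its brightness in this difference was not tested. At the chr10 probe above the competitors read 2.76 and 2.69, and at chr9:31873801-31874407 -0.70 and -0.54.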

How the data were processed

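The values are those of 8 Agilent one-colour scanner tables; per the labels' protocols, 20 ng of RNA was amplified, labelled with Cy3 and hybridised, and per the file headers the authors extracted the intensity values with Feature Extraction 10.7.1.1 (build mm9). The series table the authors deposited holds a ratio for each probe, the processed signal divided by the array's own constant, and served as an alternative. Outlier spots were left out, spots of a probe averaged, and levels taken as log2 processed signal minus the array's 75th percentile; no spot was saturated. The effects were fitted with limma 3.58.1 (R 4.3.3) over all 8 arrays on probes well above background on at least 3, as sums of terms for Ezh2 deletion, RUNX1S291fs and the moribund stage. A fold against a dim array uses the higher of its own level and the array's lowest detected level, and no fold is given where that exceeds the bright value. The label "brightest probe" means the probe with the highest mean of its interval and strand. Precision is limited by 1 array a group, and p-values measure only the spread left by the fitted terms.

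Named intervals follow a rule: the brightest, those with the widest range, those with the largest differences in 5 pairs of arrays, those with the smallest p for each term, and all that passed a test. Some that met the rule by a difference between a pair of arrays are not described. Members, lists and rule were chosen with earlier results of these data known. Joining loci over 50 kb, the intervals beside those the rule named, and the intervals at which every tested probe separated the Ezh2-deleted arrays were all chosen after their values were seen, as were the alternatives that set a pair's median difference to 0 and that take the recipient group as a random block (duplicateCorrelation). The set grouped by its rise from the double mutant through MDS to MDS/ML was also chosen after its values were seen. Alternatives were normexp background correction (offset 50, on the median signal, since the files used here hold no mean signal), quantile normalization, another percentile, the series table, other filters, 1 value per interval, the slide as a block and each array left out. Symbols of named genes came from the RefSeq table supplied, matched by accession.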

Additional observations from a re-analysis of the deposited data

Results flagged for a closer look

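The intervals listed here differed in opposite directions in 2 pairs of arrays that share a contrast. With 1 array a group these differences were not tested, each is a log2 difference between 2 arrays at 1 probe, and no explanation was weighed. Where the lower array was not well above background, its lowest detected level (or the probe's own level, if higher) stands in, and the difference is given as at least that large. The first contrast is Ezh2 deletion, as Ezh2Δ/Δ minus WT and then as the double mutant minus RUNX1S291fs. WT and the double mutant were on 1 slide, and Ezh2Δ/Δ and RUNX1S291fs on another. A slide difference thus has opposite signs in these 2 pairs. It cannot be told apart here from an effect of the RUNX1S291fs background. At chr13:48620882-48643532 (forward), for example, the arrays of the WT slide read 2.83 to 3.77 and those of the other slide 1.54 to 2.53.

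A group of intervals was higher with the deletion alone and lower when RUNX1S291fs was present. At chr6:83841733-83842297 (forward) both differences are bounds, of at least 3.21 higher and, in the other direction, -5.12 or lower. The differences were 1.62 and -3.80 or lower at chr12:88172043-88172731 (reverse), and 1.80 and -3.31 at the nearby chr12:88216447-88224965 (reverse). They were 2.16 and -3.54 at chr9:65368908-65377592 (reverse), 2.30 and -2.76 or lower at chr4:136871882-136872469 (reverse), and 4.11 and -1.72 at chr2:168804720-168854970 (forward). The overlapping intervals chr5:22887983-22939658 and chr5:22890322-22939119 (reverse) gave 2.96 and -1.58, and 2.92 and -1.64. Smaller pairs of values were 3.12 and -1.30 at chr6:120670699-120677449 (forward), 1.60 and -1.15 at chr2:128211990-128215223 (reverse), 1.10 and -1.47 at chr4:33375464-33377138 (reverse), and at least 1.20 and -1.15 or lower at chr11:76400207-76434732 (forward).

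Others were lower with the deletion alone and higher on the RUNX1S291fs background. At chr1:139822286-139822985 (forward), within the locus that was higher on the moribund arrays, the differences were -1.90 and 2.14. At chr3, within the locus that was lower on the moribund arrays, the reverse-strand intervals chr3:30077338-30080281, chr3:30064327-30064680 and chr3:30059174-30060808 gave -1.69 and 1.16, -1.69 and at least 1.26, and -1.02 and 1.56. The values were -2.51 and 1.31 at chr6:100514596-100520846 (reverse), -2.18 and 2.12 at chr13:48620882-48643532 (forward), and -1.20 and at least 1.40 at chr10:39405900-39406539 (reverse).

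The second contrast is disease against the double mutant at month 4, as MDS and then as MDS/ML. The MDS sample was on the slide of the double mutant and the MDS/ML sample on another. At chr9:96664617-96683617 (reverse) the differences were 3.95 and -1.36, and at chr17:29378878-29379589 (forward) they were -1.86 or lower and 3.52.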

How the results depend on the processing

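With 1 array a group, differences between 2 arrays have no replicate check, and dim signal limits the intervals more than the other probes. No analysis paired by replicate number was possible because each group has 1 array, so the groups share fewer than 2 replicate numbers. Recipient group was tried instead as a random block (RUNX1S291fs with its competitors, the double mutant with its competitors), chosen after seeing the data. The estimated correlation within a recipient group was -0.66. It rests on 2 recipient groups of 2 arrays each, so neither it nor the counts from this fit are firm. With this block 0 interval probes were called for RUNX1S291fs, 0 for Ezh2 deletion and 53 for stage. The RUNX1S291fs change at chr9:121846340-121848578 was -4.21 (limma adjusted p = 0.162), and the stage call at chr11:76400207-76434732 was lost (-2.70, limma adjusted p = 0.0707). Interval probes called for RUNX1S291fs numbered 8 with normexp, 2 with quantile normalization, and 0 with the percentile over detected probes, with probes detected on all 8 arrays, with no filter, with the slide as a block and with the month 4 arrays only. Leaving out 1 array gave 0 to 0 calls for RUNX1S291fs, 0 to 0 for Ezh2 deletion and 0 to 39 for stage. Stage calls were 28 with quantile normalization, 19 with probes detected on all 8 arrays, 13 with no filter and 0 with the slide as a block. Named probes were checked singly only at the probe with the smallest p of each called locus, 15 in all. Of these, 11 lost their call with normexp, 8 with no filter, 4 with the percentile over detected probes and 3 with quantile normalization. With the slide as a block 15 lost it and with the recipient group as a block 2, and 76 of the values with 1 array left out were no longer called. With normexp 13 of the 15 fitted changes were over 1.5 times smaller, and 0 moved that far with the other settings. The causes were not tested. None of the fitted changes checked this way changed sign.

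Counts of probes at least 2-fold higher and lower are given as higher/lower, in the order Ezh2Δ/Δ, RUNX1S291fs and double mutant against WT, then MDS and MDS/ML against the double mutant, then the double-recipient against the RUNX1S291fs-recipient competitors. Normexp gave 190/83, 311/114, 113/88, 523/115, 229/226 and 41/559. Values of 1 per interval and strand gave 158/98, 169/119, 85/136, 457/92, 217/106 and 27/281. Probes well above background on both arrays gave, without RUNX1S291fs, 421/230, 297/353, 1168/187, 623/303 and 82/733. Measured values without the floor gave 681/692, 731/1036 and 526/837 against WT, 1110/709 for MDS/ML and 428/931 for the competitors. The percentile over detected probes gave 285/802 for the double mutant, 2510/241 for MDS, 1373/325 for MDS/ML and 276/639 for the competitors, and quantile normalization gave 525/496 for Ezh2Δ/Δ and 1303/481 for MDS. With the median difference set to 0 the double mutant gave 360/634 and the competitors 293/609. With 1 probe per interval and strand, non-overlap counts were 77 higher and 52 lower for RUNX1S291fs and 46 and 4 for Ezh2 deletion, and detection was 64.4%, 56.4%, 52.9%, 60.0%, 65.3%, 56.5%, 46.9% and 54.1% in the array order of the report.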
